A study of Mus musculus with 150 samples.

Results

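Arntl, Clock and Npas2 encode the activating arm of the circadian clock, and their RNA was followed in the whole lungs of 150 male mice that had inhaled styrene or air. The 3 genes were chosen by name among the 17097 genes with a probe set of their own, and all 3 passed the filter on dim genes. For each gene the probe set with the highest mean over all arrays was used, namely 1425099_PM_a_at for Arntl, 1418659_PM_at for Clock and 1421037_PM_at for Npas2. Mice had inhaled 120 ppm styrene (79 mice) or air (71 mice) for 26, 52, 78 or 104 weeks. Of these, 39 were C57BL/6 mice without CYP2F2 (KO, CYP2F2(-/-)), 38 were C57BL/6 mice that lacked CYP2F2 and carried a 2F1,SA13,2B6 transgene (TG), 42 were outbred CD-1 mice and 31 were wild-type C57BL/6 mice (WT). All were adult males, per the labels, and neither labels nor design text name the promoter of the transgene. Each of the 31 groups of strain, exposure and week held 2 to 10 mice, with 1 array per mouse, 10 mice of 104 weeks carried a tumour label, and the WT mice of 26 weeks analysed here had all inhaled styrene.

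BMAL1, the product of Arntl, pairs with CLOCK or with NPAS2, its close relative, and the pair binds E-box elements and turns on the Per, Cry and Nr1d genes and the PAR bZIP genes Dbp, Tef and Hlf. PER and CRY proteins then block the activators, and the REV-ERB receptors encoded by Nr1d1 and Nr1d2 repress Arntl and Npas2 through ROR elements (ROREs), to which the ROR receptors bind as activators. In mouse lung, as in other organs, Arntl and Npas2 RNA cycle over the day in antiphase to Per, Nr1d and Dbp RNA, whereas Clock RNA cycles little. The animal room had a 12-h light-dark cycle and the mice were killed in the morning after the last exposure, but no source used here gives an hour for each animal. Hour of death and group therefore cannot be told apart in any comparison.

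The windows around the start sites of the 3 genes, from 250 bases before the start to 50 after it, are shown because Arntl and Npas2 moved together in these lungs and Clock followed less closely. They are RefSeq sequences of GRCm38.p6, the table held all 3 genes in 6 windows, and capitals mark matches to the RORE core TAGGTNA. The Arntl window lies at chr7:113207261-113207560 (plus strand), the Npas2 window at chr1:39194022-39194321 (plus strand) and the Clock window at chr5:76304743-76305042 (minus strand).
Arntl: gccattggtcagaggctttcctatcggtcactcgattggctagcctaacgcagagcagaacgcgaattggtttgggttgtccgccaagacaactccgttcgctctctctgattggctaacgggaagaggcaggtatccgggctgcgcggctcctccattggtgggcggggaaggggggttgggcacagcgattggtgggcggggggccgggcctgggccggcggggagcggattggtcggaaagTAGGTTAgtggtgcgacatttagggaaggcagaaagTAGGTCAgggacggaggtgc
Npas2: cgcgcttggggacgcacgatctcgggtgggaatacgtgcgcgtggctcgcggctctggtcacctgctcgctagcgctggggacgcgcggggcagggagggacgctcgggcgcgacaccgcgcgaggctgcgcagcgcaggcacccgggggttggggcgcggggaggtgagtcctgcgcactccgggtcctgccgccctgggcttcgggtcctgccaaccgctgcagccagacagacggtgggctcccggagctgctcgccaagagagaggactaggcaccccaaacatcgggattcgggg
Clock: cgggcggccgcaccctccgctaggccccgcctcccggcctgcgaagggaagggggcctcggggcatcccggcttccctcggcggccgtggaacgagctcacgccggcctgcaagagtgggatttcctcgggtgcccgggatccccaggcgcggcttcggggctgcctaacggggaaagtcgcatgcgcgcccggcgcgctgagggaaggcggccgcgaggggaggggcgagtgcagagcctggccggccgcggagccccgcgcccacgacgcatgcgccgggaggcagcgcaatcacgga
The Arntl window held the RORE core at 2 places, beginning 6 bases before and 30 bases after the start site. On either strand, 8.3% of 32544 promoter windows of the same length held at least 1 such match and 0.562% held 2 or more. The second Arntl window overlaps the printed one and held only the earlier of these 2 matches, 40 bases after its own start site. The windows of Npas2 (1) and Clock (3) held none. The E-box CACGTG and the D-box TTANNTAA, which 7.17% and 5.98% of windows held, were in none of the 6 windows. The nuclear receptor core AGGTCA, held by 16.2% of windows, overlapped the later match printed for Arntl and occurred in 1 Clock window that is not shown. The letters of the RORE core were set after the Arntl window had been read, and a match is a description of the sequence, not a binding site.

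Values are log2 intensities as deposited, so a difference of 1 is a factor of 2, and levels of different probe sets are not compared. Sftpc of alveolar type 2 cells, at 13.65 to 13.93, and Scgb1a1 of club cells, at 13.59 to 14, were bright on all arrays. Other lung markers were not, such as Krt15 of club cells (2.66 to 6.5) and Dnah5 of ciliated cells (3.24 to 5.85). The heart muscle marker Myl7 ranged from 4.27 to 11.23 and the adipocyte marker Adipoq from 2.63 to 10.37. Cyp2f2 was 12.18 ± 0.19 (SD, n = 39) in KO mice, 12.12 ± 0.15 (n = 38) in TG mice, 13.26 ± 0.24 (n = 42) in CD-1 mice and 13.31 ± 0.13 (n = 31) in WT mice. One CD-1 air mouse at 104 weeks, labelled with a tumour, had 12.07, within the KO range, and no source used here places the probe set inside or outside the deletion. Plates were read from the well labels. Up to 78 weeks most arrays lay on plate 1, which held both exposures. Plate 2 held styrene arrays and 1 air array, of a CD-1 mouse at 52 weeks. At 78 weeks all air arrays lay on plate 1, and most styrene arrays of WT, KO and TG mice on plate 2. At 104 weeks styrene arrays lay on plate 4 and air arrays on plate 3, except 4 styrene arrays, of KO and TG mice, on either plate. Dose and plate cannot be told apart at that week.

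Arntl and Npas2 were among the genes that varied most between mice of the same group. The within-group SD was 0.693 for Arntl and 0.748 for Npas2, ranks 157 and 118 from the largest of 15695 genes tested, and 0.352 for Clock, against a median of 0.213 over all genes. Over all arrays Arntl ran from 3.46 to 7.46, Npas2 from 2.72 to 7.12 and Clock from 5.37 to 7.88. The Npas2 probe set is dim in the low groups, where it lay near the filter level of 2.99 to 3.19, and it lay above that level on 143 of 150 arrays.

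Among the 31 group means, Arntl was highest in KO air mice at 26 weeks (7.08 ± 0.17, SD, n = 5) and lowest in CD-1 styrene mice at 26 weeks (3.98 ± 0.42, n = 5), an 8.59-fold range. Npas2 was also highest in KO air mice at 26 weeks (6.44 ± 0.28, n = 5) and lowest in KO styrene mice at 104 weeks (3.38 ± 0.13, n = 5), an 8.34-fold range. Clock spanned a smaller range of 3.19-fold, with its highest mean in CD-1 air mice at 78 weeks (7.42 ± 0.38, n = 5) and its lowest in WT styrene mice at 104 weeks (5.75 ± 0.19, n = 5). In the order of group means, none of the 30 neighbouring pairs of any of the 3 genes differed by more than the larger SD of the pair. The largest steps were 0.34 for Arntl, 0.28 for Clock and 0.35 for Npas2.

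**Figure D1:**
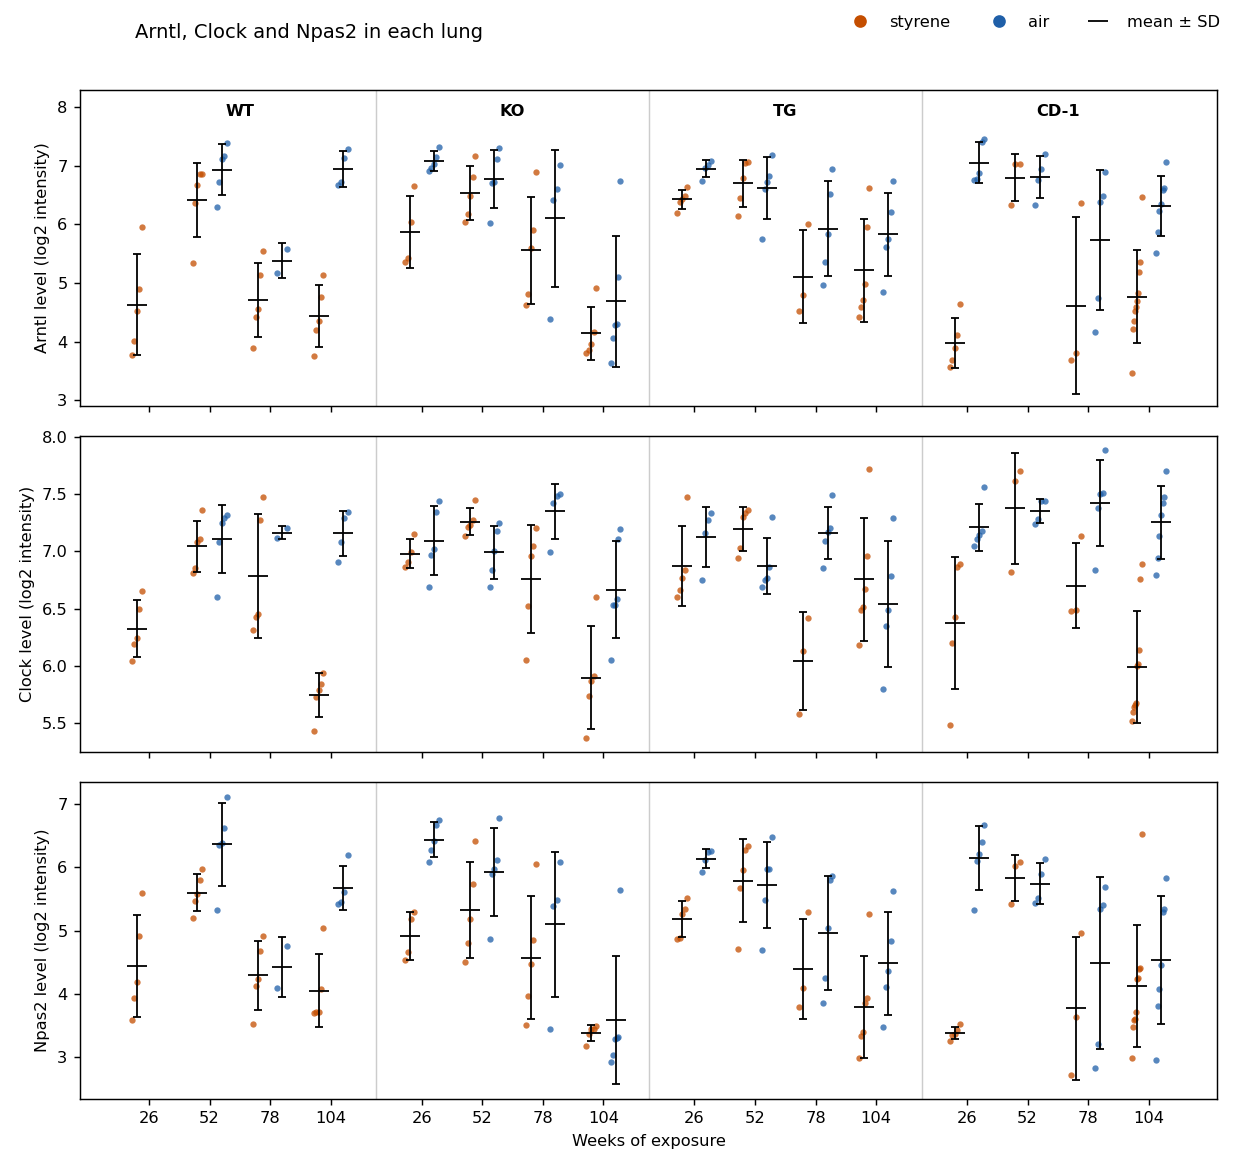
Levels of Arntl, Clock and Npas2 (log2 intensity, y axes) in each of 150 lungs by strain and weeks of exposure (x axis), with styrene left of air and bars for the mean ± SD of each group. The CD-1 styrene mice at 26 weeks sit at 3.56 to 4.64 for Arntl, apart from the air mice at 6.76 to 7.46.

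The comparison of styrene with air asked whether the activators responded to the exposure in each strain and week. The clearest difference before 104 weeks was in CD-1 mice at 26 weeks, where Arntl and Npas2 were lower by 7.9-fold and 6.48-fold. Arntl was 4.64, 3.56, 3.69, 4.12 and 3.89 in the styrene mice, against 7.46, 7.41, 6.88, 6.76 and 6.77 in the air mice. Npas2 was 3.25, 3.52, 3.35, 3.37 and 3.43 in the styrene mice, against 6.68, 6.22, 6.40, 5.32 and 6.11 in the air mice. For both genes every styrene mouse lay below every air mouse. The log2 difference was -2.98 for Arntl (SE 0.44, adjusted p = 1.49e-06), the fifth smallest p of all genes, and -2.70 for Npas2 (SE 0.475, adjusted p = 0.000101). Clock also lay lower in all 5 styrene mice, at 6.86, 5.48, 6.89, 6.43 and 6.20, than in the air mice, at 7.56, 7.14, 7.18, 7.05 and 7.11. Its difference of -0.71 (SE 0.225) did not pass the threshold (adjusted p = 0.17). In this comparison 0.65% of genes were called (102 of 15695).

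Of the CD-1 arrays of that week 1 styrene array was on plate 2 and the other 9 arrays on plate 1. On plate 1 alone the differences were -2.97 for Arntl (adjusted p = 5.35e-06), -2.80 for Npas2 (7.9e-05) and -0.61 for Clock (0.0725). The second Npas2 probe set, 1421036_PM_at, gave -1.05 (adjusted p = 0.00303). The second Arntl probe set, 1457740_PM_at, lay above the filter level on only 46 arrays and gave -0.44 (adjusted p = 0.336). Fewer cells of a type and less RNA per cell cannot be told apart in whole lung. None of 51 markers of 10 cell types was called in this comparison, and the medians of the lists ran from -0.24 (heart muscle) to 0.26 (adipocytes).

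Other clock genes changed in the same CD-1 lungs. Of 19 measured genes in a list of clock genes, 7 rose and 1 fell, with a list median of 0.39 against 0 over all genes. Dbp, an output activator, was 18.6-fold higher in styrene mice (log2 4.21, SE 0.674, adjusted p = 1.09e-05). Nr1d2, which encodes REV-ERB beta, rose by 2.24 (adjusted p = 0.000615) and Per3 by 2.07 (8.42e-05). Hlf and Tef, relatives of Dbp, rose by 1.91 and 1.31, the BMAL1 repressor Ciart by 1.52 and Per2 by 1.25 (adjusted p = 0.0438). Nfil3, which competes with Dbp for D-boxes, fell by 1.49 (adjusted p = 0.00427). The 2 Cry genes had -0.32 (Cry1) and 0.39 (Cry2), neither called, and Rora had 0.05. Nr1d1 was not analysed here.

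In KO and TG mice at 26 weeks the 2 genes lay lower as well, though no gene was called in either comparison (0% of 15695). KO styrene mice had Arntl at 6.66, 5.36, 5.43 and 6.04, against 7.04, 7.16, 7.33, 6.92 and 6.97 in KO air mice. Their Npas2 was 5.30, 4.67, 4.53 and 5.18, against 6.75, 6.68, 6.28, 6.42 and 6.08 in KO air mice. The ranges did not overlap, with differences of -1.21 (SE 0.457) and -1.52 (SE 0.494) that ranked 63 and 21 by p among all genes (adjusted p = 0.999 each). TG styrene mice had Arntl at 6.19 to 6.64, against 6.75 to 7.09 in TG air mice, and Npas2 at 4.87 to 5.51, against 5.93 to 6.26 in TG air mice. These ranges did not overlap either, with differences of -0.52 (SE 0.457) and -0.96 (SE 0.494; adjusted p = 1 each). Clock ranges overlapped in both strains. The test of the difference between strains, set up after the values of each week were seen, gave an Arntl effect in CD-1 mice that was lower by 2.46 than in TG mice (SE 0.635, adjusted p = 0.27; 0.0191% of genes called) and by 1.77 than in KO mice (SE 0.635, adjusted p = 1; 0.0255% called). The effect of CD-1 mice was thus not shown to differ from those of KO and TG mice. WT styrene mice at 26 weeks, which had no air group, had Arntl at 5.96, 4.52, 4.01, 4.90 and 3.77 and Npas2 at 5.60, 4.19, 3.93, 4.91 and 3.58.

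At 52 weeks no difference between the exposures was called for the 3 genes in any strain. Differences ran from -0.52 (WT) to 0.08 (TG) for Arntl and from -0.76 (WT) to 0.07 (TG) for Npas2. Those of Clock ran from -0.13 (CD-1) to 0.32 (TG). The share of all genes called was 0.401% in WT, 0.0127% each in KO and TG and 0.0701% in CD-1 mice. CD-1 mice, which had shown the clearest difference at 26 weeks, had Arntl at 6.80 ± 0.41 (SD, n = 3) in styrene mice and 6.81 ± 0.36 (n = 4) in air mice. At 78 weeks no difference was called for the 3 genes, with 0.00637% of all genes called in WT, 0% in KO, 0.191% in TG and 0.121% in CD-1 mice. The spread within groups was then wide, with CD-1 styrene mice at 6.36, 3.80 and 3.68 and CD-1 air mice at 6.89, 4.75, 6.48, 6.38 and 4.16 for Arntl. The 2 lowest air mice thus lay between the styrene mice. At 78 weeks all KO and TG styrene arrays lay on plate 2 and the air arrays on plate 1, so those differences rest on a plate term set by other groups. Most WT styrene arrays of that week also lay on plate 2, and the WT air arrays on plate 1. Clock in TG mice was 6.42, 5.58 and 6.13 after styrene, against 6.85 to 7.49 in air mice, with a difference of -0.49 (adjusted p = 0.384) that became -1.12 (adjusted p = 0.000303) without the plate term.

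Averaged over 26, 52 and 78 weeks, CD-1 mice had lower Arntl after styrene (-1.41, SE 0.28, adjusted p = 0.000972), in a comparison with 0.835% of genes called. Npas2 (-1.14, SE 0.302, adjusted p = 0.0408) and Clock (-0.52, SE 0.143, adjusted p = 0.0493) passed narrowly, and lost the call in 13 and 16 of 25 fits that left out 1 mouse. The lowest and highest differences in these fits were -1.34 and -0.96 for Npas2 and -0.59 and -0.43 for Clock. At 26, 52 and 78 weeks alone, CD-1 mice had -2.98, -0.13 and -1.12 for Arntl and -2.70, 0.01 and -0.72 for Npas2. Only the differences of 26 weeks were called, and Clock was called in none of these weeks. The averages of the other strains ran from -0.51 to -0.26 for Arntl, -0.77 to -0.32 for Npas2 and -0.14 to 0.06 for Clock, and none was called (0.0382% of genes in WT mice, 0% in KO and TG mice).

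**Figure D2:**
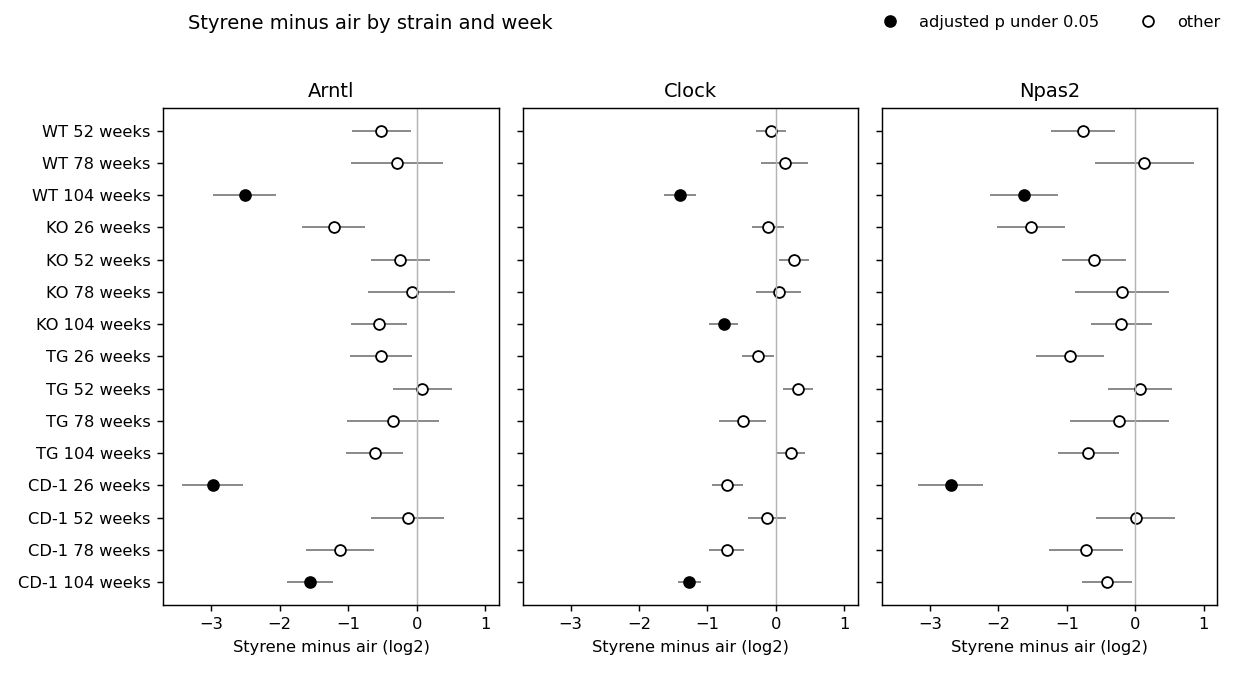
Difference of styrene minus air (log2, x axes, with SE bars) for each gene in 15 comparisons of strain and week (y axis), with filled points for adjusted p under 0.05. The 8 filled points, 3 for Arntl, 3 for Clock and 2 for Npas2, all lie below 0. Those of WT, CD-1 and KO mice at 104 weeks stand beside 48%, 63.6% and 39.4% of all genes called, where dose and plate coincide. The others, Arntl and Npas2 in CD-1 mice at 26 weeks, stand beside 0.65%.

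At 104 weeks WT mice had all 3 activators lower after styrene. Arntl was 5.13, 4.77, 4.35, 3.76 and 4.20 in styrene mice, against 6.72, 6.67, 7.13 and 7.29 in air mice (-2.51, SE 0.457, adjusted p = 5.25e-06). Clock was 5.79, 5.94, 5.73, 5.84 and 5.43 in styrene mice, against 7.29, 7.34, 6.91 and 7.08 in air mice (-1.41, SE 0.234, adjusted p = 1.01e-06). Npas2 was 5.04, 4.08, 3.70, 3.71 and 3.71 in styrene mice, against 5.46, 5.43, 6.19 and 5.62 in air mice (-1.63, SE 0.494, adjusted p = 0.00436). The ranges of styrene and air mice did not overlap for any of the 3 genes. As 48% of all genes were called in this comparison, in which dose and plate coincide, a call says little about the members. The second Npas2 probe set gave -0.18 (adjusted p = 0.541). Of 51 cell type markers 5 were higher and 7 lower in styrene mice, and their part in these differences was not tested.

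CD-1 mice at 104 weeks, with 63.6% of genes called, had lower Arntl (4.77 ± 0.80, SD, n = 10, in styrene mice and 6.32 ± 0.51, n = 7, in air mice; -1.55, adjusted p = 3.66e-05) and lower Clock (5.99 ± 0.49 in styrene mice and 7.25 ± 0.32 in air mice; -1.26, adjusted p = 6.97e-10). Npas2 lay from 2.99 to 6.53 with a median of 3.97 in styrene mice, and from 2.96 to 5.84 with a median of 4.45 in air mice. That difference was -0.42 (SE 0.363, adjusted p = 0.312), and -1.28 (adjusted p = 0.0127) without the tumour-labelled mice. The median of all genes was itself 0.16 higher in styrene mice, and 16 of 51 cell type markers were higher and 7 lower, with all 3 red blood cell markers among the higher ones. Their summed level was 28.51 to 32.79 in styrene mice and 23.69 to 30.02 in air mice. The part of these markers in the result was not tested. KO mice had a call for Clock alone, which was lower (5.90 ± 0.45, n = 5, in styrene mice and 6.66 ± 0.42, n = 6, in air mice; -0.765, adjusted p = 0.00271; 39.4% of genes called), with Arntl at -0.55 and Npas2 at -0.21. TG mice had differences of -0.61, 0.21 and -0.69 for Arntl, Clock and Npas2, none called (0% of genes).

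Genes of the clock list were called in 3 of the 4 strains at 104 weeks, where large shares of all genes were called as well. In WT mice 11 of 19 genes rose after styrene and 1, Rora, fell, beside 48% of all genes called, with a median of 0.43 against 0.12 over all genes. Dbp rose 13.6-fold and Ciart 3.74-fold, whereas Nr1d2 had -0.49 and was not called. In CD-1 mice 11 rose and 2, Rora and Rorb, fell (63.6% of all genes called; median 0.29 against 0.16 over all genes), with Dbp 4.82-fold higher. In KO mice 2 rose and 2 fell, a smaller share than the 39.4% of all genes called (median 0.18 against 0.11 over all genes), and in TG mice none was called.

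Whether the styrene effect differed between strains was tested within the model. Averaged over the weeks that both strains had, the effect of WT minus KO was -0.82 for Arntl, -0.30 for Clock and -0.42 for Npas2 (adjusted p = 0.864, 0.937 and 0.962). The effects of TG minus KO (0.09 to 0.18) and CD-1 minus WT (-0.26 to 0.38) were not called either, with 0.0892%, 0% and 0.0701% of genes called in the 3 tests. In single weeks, chosen after the values were seen, the effect at 104 weeks was lower in WT than in TG mice by 1.90 for Arntl (SE 0.616, adjusted p = 0.0106) and by 1.62 for Clock (SE 0.315, adjusted p = 4.57e-05), with 37.3% of genes called. That of WT minus KO at 104 weeks was -1.96 for Arntl (SE 0.616, adjusted p = 0.274), with 0.0127% of genes called. For WT minus CD-1 it was -0.96 (adjusted p = 0.568), with 0.0382% called. For WT minus TG the dim second Arntl probe set gave -0.37 (adjusted p = 0.201). All WT styrene arrays of 104 weeks lay on plate 4, but TG styrene replicates 1 and 2 may lie on plate 3 or 4. Those TG mice had Arntl at 6.62 and 5.96, against 4.42 to 4.98 in the TG styrene mice on plate 4. Their Clock was 7.72 and 6.67, against 6.18 to 6.96. Strain and plate cannot be fully told apart there.

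Over the 15 comparisons the fitted difference was below 0 in 14 for Arntl, 12 for Npas2 and 10 for Clock. Without the plate term, the styrene mean was lower in 14, 13 and 11. Of 74 exposed mice with an air group, 59 lay below the air mean for Arntl, 61 for Npas2 and 53 for Clock, on values with no plate correction. Up to 78 weeks these were 37, 37 and 30 of 48 mice. Mice of a group share the same air mean and are not independent in these counts. Dose and plate cannot be told apart at 104 weeks in any strain. At 78 weeks dose and plate coincide in KO and TG mice, and nearly so in WT mice. Their air arrays lay on plate 1 and their styrene arrays mostly on plate 2. The fitted plate 2 term was -0.472 for Arntl, -0.333 for Npas2 and -0.631 for Clock. Its part in these counts was not tested, and such counts were not made over all genes. Styrene and air mice did not overlap in 4 comparisons for Arntl, 4 for Npas2 and 3 for Clock. These lay in CD-1, KO and TG mice at 26 weeks, where 1.95%, 2.03% and 1.06% of all genes did not overlap (0.65%, 0% and 0% called), in TG mice at 78 weeks (33.4% of all genes, 0.191% called) and in WT mice at 104 weeks (37.4%, with 48% called).

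Without exposure, strains were compared in air mice. Averaged over weeks, none of KO minus WT (-0.57, -0.14 and -0.62 for Arntl, Clock and Npas2), TG minus KO (-0.10 to 0.17) and CD-1 minus WT (-0.54 to 0.26) was called, with 0.319%, 0.344% and 17.4% of genes called. At 104 weeks, however, KO air mice had lower Arntl and Npas2 than WT air mice of the same plate. Arntl was 4.28, 4.31, 3.63, 6.74, 5.11 and 4.07 in KO mice, against 6.72, 6.67, 7.13 and 7.29 in WT mice (-2.26, SE 0.44, adjusted p = 0.00238), the seventh smallest p of all genes, with 0.198% of genes called. Npas2 was 2.93, 3.04, 3.32, 5.64, 3.28 and 3.31 in KO mice, against 5.46, 5.43, 6.19 and 5.62 in WT mice (-2.09, SE 0.475, adjusted p = 0.0207). One KO mouse, replicate 4, lay within the WT range for both genes and the other 5 lay below it. The Npas2 call was lost without WT replicate 1, 3 or 4 (adjusted p = 0.0512, 0.181 and 0.064), while Arntl kept its call without any single WT mouse. Fits without single KO mice were not run, and both calls held without the tumour-labelled mice (-2.21 for Arntl, adjusted p = 0.017, and -2.11 for Npas2, adjusted p = 0.0444). The second probe sets gave -0.42 for Arntl and -0.61 for Npas2, neither called (adjusted p = 0.466 and 0.391).

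Clock was not called in that comparison (6.66 ± 0.42, SD, n = 6, in KO mice and 7.15 ± 0.20, n = 4, in WT mice; adjusted p = 0.591). Of the 19 clock list genes Per2, Per3, Dbp and Ciart rose in KO mice, by 1.54, 1.60, 3.08 and 1.80 on the log2 scale, and none fell (median 0.47 against 0.01 over all genes). Of 51 cell type markers Cyp2f2 alone was called, lower in KO mice. The B cell markers, none called, had a median of 0.66, with a summed level of 25.77 to 44.38 in KO mice and 29.47 to 34.62 in WT mice, and their part in the result was not tested.

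Levels also changed with the week. In air mice Arntl and Npas2 were lower at 78 than at 52 weeks, by 1.03 (SE 0.243, adjusted p = 0.000322) and 1.22 (SE 0.262, adjusted p = 8.5e-05) as means of the 4 strains, whereas Clock had a difference of 0.15 (adjusted p = 0.333). The share of genes called there was 41.1%. Group means of Arntl were 5.38 to 6.11 at 78 weeks and 6.62 to 6.94 at 52 weeks. KO air mice, as an example, ranged from 4.39 to 7.01 at 78 weeks and from 6.03 to 7.30 at 52 weeks, so the ranges overlapped. No strain alone passed the threshold for any of the 3 genes, with 0.644% (WT), 12.7% (KO), 23% (TG) and 2.02% (CD-1) of all genes called. In the clock list 6 genes rose and 6 fell between these weeks (median 0.06 against -0.06 over all genes). Dbp, Nr1d2, Per3, Hlf, Rora and Rorb rose, by 1.79, 1.30, 0.75, 0.73, 0.56 and 0.21. Nfil3, Per1, Per2, Cry1, Cry2 and Csnk1e fell, by 1.44, 0.92, 0.47, 0.45, 0.37 and 0.14. Of 51 cell type markers 7 were higher and 6 lower at 78 weeks. Of the B cell markers 4 of 5 were higher, with summed levels of 29.73 to 35.55 at 78 weeks and 24.90 to 32.68 at 52 weeks. Dnah5, Slc34a2 and Tek were higher and Cldn10, Foxj1, Tekt1, Pecam1, Car4 and Alas2 lower, and the part of these markers in the result was not tested.

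In exposed mice all 3 activators were higher at 52 than at 26 weeks, with means over all 4 strains of 1.36 for Arntl (SE 0.229, adjusted p = 2.83e-06), 0.55 for Clock (SE 0.117, adjusted p = 0.000181) and 1.14 for Npas2 (SE 0.247, adjusted p = 0.000228), where 27.6% of genes were called. In air mice of the 3 strains with both weeks, without WT, the differences were -0.26, -0.02 and -0.41, none called, with 2.39% of genes called. The step differed widely in size between strains, from 0.27 (TG) to 2.72 (CD-1, adjusted p = 0.000509) for Arntl and from 0.41 (KO) to 2.39 (CD-1, adjusted p = 0.00713) for Npas2, and whether strains differed in it was not tested. In single strains the share of all genes called was 1.71% in CD-1 mice and 9.98% in WT mice, and WT mice had calls for Arntl (1.79, adjusted p = 0.00372) and Clock (0.72, adjusted p = 0.0252). Of the clock list 9 genes fell and 3 rose (median -0.14 against -0.03 over all genes), with Dbp lower by 1.95, Hlf by 1.01 and Per3 by 0.90 at 52 weeks and Nfil3 higher by 0.95. At 52 weeks 3 of 4 adipocyte markers and 2 of 3 red blood cell markers were also lower. The summed level was 16.28 to 24.29 at 52 weeks and 18.28 to 29.53 at 26 weeks for adipocytes, and 27.22 to 31.26 at 52 weeks and 29.44 to 31.76 at 26 weeks for red blood cells, and their part in the result was not tested. All these comparisons share their 52-week or 26-week mice with those of styrene and air. At 78 weeks the exposed mice had Arntl lower by 1.29 than at 52 weeks (SE 0.394, adjusted p = 0.0329), with 5.85% of genes called. That call was lost without CD-1 styrene replicate 2 or 3 of 78 weeks (adjusted p = 0.0628 and 0.0595). All exposed mice of 52 weeks lay on plate 1. Those of 78 weeks lay on plate 2 in KO and TG mice and mostly so in WT mice. Week and plate thus nearly coincide in these strains, and the difference rests on the plate term.

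Between 78 and 104 weeks the plates change as well, so week and plate cannot be told apart. Clock was lower at 104 weeks in exposed mice (-0.92, SE 0.196, adjusted p = 9.95e-05; 37.6% of genes called) and in air mice (-0.37, SE 0.12, adjusted p = 0.0138; 29.7% called). Arntl and Npas2 were not called in either mean. KO air mice alone had all 3 genes lower at 104 weeks (-1.42, -0.68 and -1.51 for Arntl, Clock and Npas2; adjusted p = 0.0271, 0.038 and 0.0288; 8.67% of genes called), and leaving out 1 KO air mouse of 78 weeks ended each call for 3 of the 4 mice. Exposed KO mice had Arntl (-1.90, adjusted p = 0.0104) and Clock (-1.49, adjusted p = 9.99e-05) lower at 104 weeks, where 38.3% of genes were called, though the dim second Arntl probe set gave 0.10.

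Deviations from the group means, with the plate 2 term also removed, showed how the 3 genes moved from mouse to mouse. Arntl and Npas2 varied together across 150 arrays (Pearson r = 0.86, Spearman rho = 0.83), with a permutation p within groups of 1e-05 for each, the smallest that 100000 permutations can give (adjusted over 3 pairs, 3e-05 for r). Without the 2 arrays farthest from the median of Arntl r was 0.84. Within plates 1, 2, 3 and 4 it was 0.89, 0.89, 0.87 and 0.75, and within strains it lay between 0.82 (CD-1) and 0.90 (TG). Clock followed less closely, with r = 0.42 (rho = 0.43) with Arntl and r = 0.30 (rho = 0.30) with Npas2 (permutation p adjusted over 3 pairs, 3e-05 and 0.0014). Without the 2 farthest arrays these were 0.39 and 0.27. Within plates 1 to 4 the r of Arntl and Clock was 0.39, 0.64, 0.30 and 0.29, and that of Clock and Npas2 was 0.36, 0.32, 0.42 and -0.09, so the relation of Clock and Npas2 did not hold on plate 4.

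Clock moved instead along the main axis of differences between mice of the same group, the first principal component of all genes' deviations, which carried 20.4% of their variance. Its r with that axis was 0.80, and 0.75 to 0.88 within plates, against 0.05 for Arntl and -0.06 for Npas2. With the axis removed, r was 0.63 between Arntl and Clock, 0.58 between Clock and Npas2 and still 0.86 between Arntl and Npas2. What the axis stands for was not tested.

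**Figure D3:**
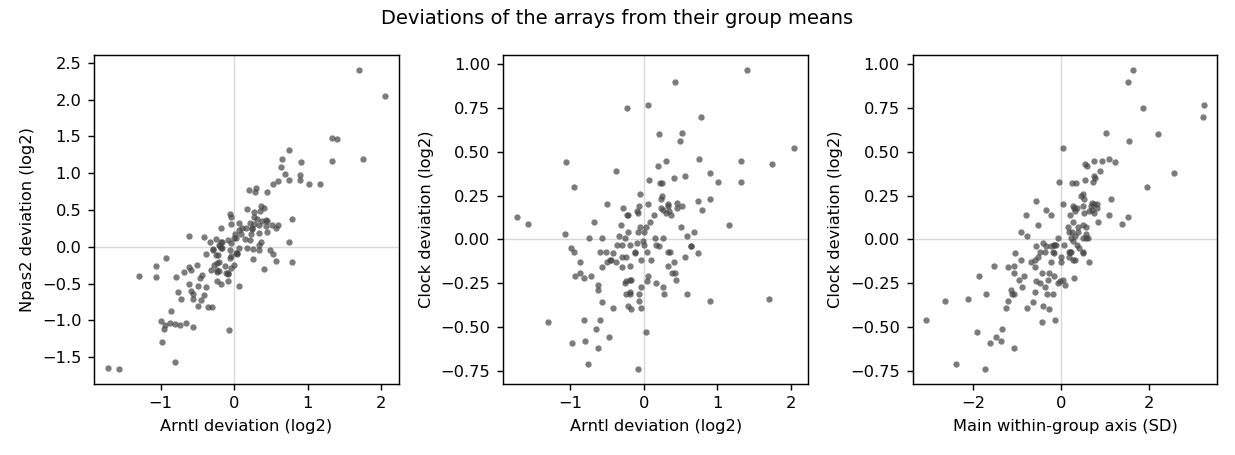
Deviations of 150 arrays from their group means (log2), with the plate 2 term also removed. Npas2 is shown against Arntl (left), Clock against Arntl (middle) and Clock against the score on the main within-group axis (right, in SD). The points follow a line in the left panel (r = 0.86) and the right panel (r = 0.80) and scatter in the middle one (r = 0.42).

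Among all tested genes Npas2 was the one most like Arntl, and Arntl the one most like Npas2 (r = 0.857 over 150 arrays). Next to Arntl came Spon2 (0.752), Rasl11a (0.71), Spaar (0.676) and Adm (0.656), and next to Npas2 came Rasl11a (0.767), Spon2 (0.729), Spaar (0.687) and Nfil3 (0.681). The genes most opposed to Arntl were Ciart (-0.82), Tspan4 (-0.817), Per3 (-0.813), Dbp (-0.805) and Hlf (-0.769). Those most opposed to Npas2 were Dbp (-0.822), Per3 (-0.806), Hlf (-0.742), Wee1 (-0.713) and Tspan4 (-0.703). Clock was most like Il18r1 (0.863), Apc (0.833), Synj2bp (0.831), Nfat5 (0.83) and Ppp1r12a (0.829), and most opposed to Naa60 (-0.776), Kxd1 (-0.754), Lsm10 (-0.739), Pigs (-0.736) and Mrpl43 (-0.728). These values are descriptions, since all genes share the same arrays.

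Across the clock list 8 of 19 genes had r below -0.5 with Arntl and 8 with Npas2, but none with Clock. For both, these were Per2, Per3, Nr1d2, Dbp, Tef, Hlf, Bhlhe40 and Ciart. Nfil3 alone lay above 0.5, at 0.63 with Arntl and 0.68 with Npas2. Per1 had -0.45 and -0.29, and the 2 Cry genes -0.26 to 0.12. For Clock the one list gene above 0.5 was Rora (0.71), the RORE activator, which had -0.05 with Arntl. Genes outside the list, such as Il18r1 (0.863), lay higher with Clock, which itself had r = 0.8 with the main axis. Such counts of r were not made over all genes.

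**Figure D4:**
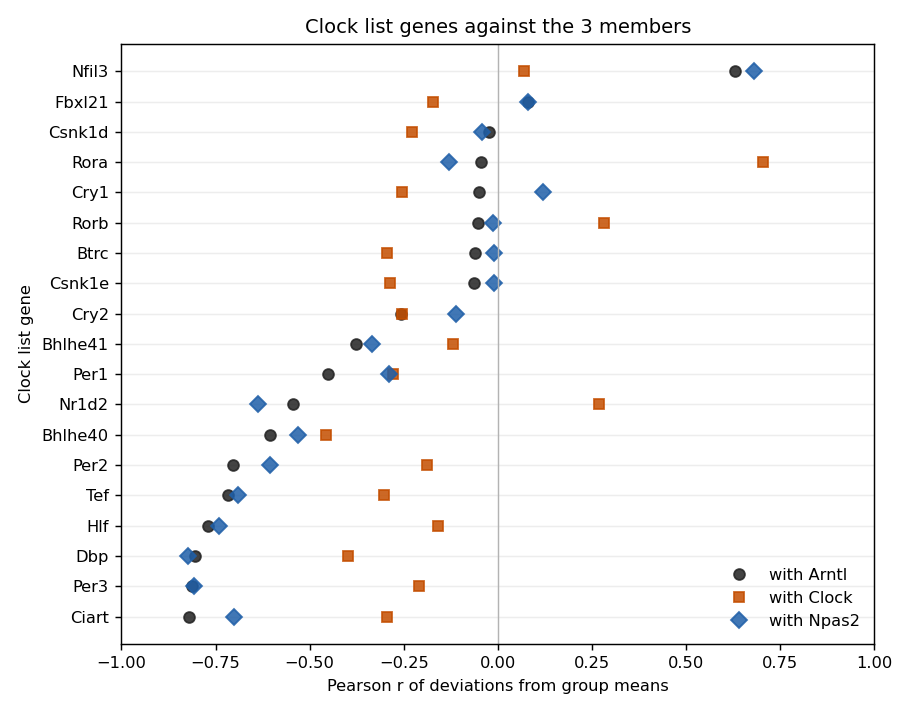
Pearson r of within-group deviations over 150 arrays (x axis) between each of 19 clock list genes (y axis, ordered by r with Arntl) and Arntl, Clock and Npas2. Points of Arntl and Npas2 lie side by side from -0.82 (Ciart with Arntl) to 0.68 (Nfil3 with Npas2), whereas no Clock point lies below -0.5 and its highest is Rora at 0.71.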

How the data were processed

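Whole-lung RNA of 150 mice was measured on Affymetrix HT MG-430 PM arrays. The deposited values are log2 intensities of 45037 probe sets that the authors normalized by RMA in Partek, per the submitters' processing notes (versions not given in the sources used here), with array medians of 3.95 to 4.26. Of the probe sets 28898 named 1 gene, 551 several and 15588 none, and those of 1 gene covered 17097 genes. A gene was tested if its brightest probe set lay above the array's 30th percentile (2.99 to 3.19) on at least 3 arrays, which left 15695 genes.

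Differences were fitted with limma 3.58.1 in R 4.3.3 (lmFit and eBayes, 31 group means and a term for plate 2, all arrays), with p-values adjusted by Benjamini-Hochberg over all 15695 genes in each of 69 comparisons and called under 0.05. Adjusted p-values without another name come from these fits. Correlations used residuals of the main fit, with 31 group means and the plate 2 term, here called deviations from group means. They used 100000 permutations within groups in Python 3.11.15. Alternatives were other filters, probe sets, plate terms and subsets of arrays, and each array of groups of 2 to 5 left out in turn. The code was tested on simulated data. The number of arrays limits the precision.

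Groups came from the labels, whose weeks differ from the 1 or 4 weeks of a treatment protocol. The design text speaks of 154 mice. Replicate numbers did not pair samples in general: over 64 same-numbered pairs the correlation of deviations had a median of 0.014 (-0.497 to 0.654), and 22 were over 0.1. In TG mice at 26 weeks all 4 pairs were (0.322 to 0.485), and these were also fitted as pairs. The named genes were the 3 members, a list of 22 clock genes, the 5 genes most like and most opposed to each member, and Cyp2f2. The members and lists were chosen with earlier results of these data known. Promoter windows come from RefSeq (GRCm38.p6).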

Additional observations from a re-analysis of the deposited data

Results flagged for a closer look

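Single mice stood apart in 7 of 81 sets of values tested, each 1 gene in 1 group of mice, where chance flags about 1 in 20. Clock was highest in CD-1 air replicate 1 at 26 weeks (7.56, the next at 7.18), in TG air replicate 2 at 52 weeks (7.3, the next at 6.86) and in TG styrene replicate 2 at 26 weeks (7.47, the next at 6.84), and lowest in KO air replicate 1 at 78 weeks (6.99, the next at 7.42). Npas2 was highest in CD-1 styrene replicate 5 at 104 weeks, a tumour-labelled mouse (6.53, the next at 4.41), in KO air replicate 4 at 104 weeks (5.64, the next at 3.32) and in WT styrene replicate 1 at 104 weeks (5.04, the next at 4.08).

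The styrene effect at 104 weeks differed between WT and TG mice by -1.90 for Arntl (limma adjusted p = 0.0106) and by -1.62 for Clock (adjusted p = 4.57e-05). The test was chosen after the values were seen, and 37.3% of genes were called. The dim second Arntl probe set gave -0.37 (adjusted p = 0.201). TG styrene replicates 1 and 2 may lie on plate 3 or 4 and all WT styrene arrays lay on plate 4. Strain and plate thus cannot be fully told apart.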

How the results depend on the processing

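Of 1133 values of the main comparisons and correlations under other settings, 1097 kept their side of the threshold, 43 of these uncalled with the sign turned, 22 lost a call, 13 gained one and 1 reversed. Of 1881 with 1 array left out, 1850 kept their side, 45 of these uncalled with the sign turned, and 31 lost a call. The cause was not tested, and p-values below are limma's adjusted p unless named otherwise. In the CD-1 mean to 78 weeks, Clock lost its call with no filter (-0.52, p = 0.0532), the mean of probe sets (-0.422), no plate term (-0.509), separate fits of CD-1 and C57BL/6 arrays (-0.518), and probe sets 1418660_PM_at (-0.397), 1435775_PM_at (-0.448) and 1439314_PM_at (-0.326). Npas2 lost it with the mean of probe sets (-0.741), separate fits (-1.132) and 1421036_PM_at (-0.346). With 1 array left out, that mean ran from -0.592 to -0.427 for Clock (16 of 25 calls lost) and from -1.336 to -0.96 for Npas2 (13 of 25 lost).

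Without the plate term Clock gained calls in TG at 78 weeks (-1.117), in CD-1 at 26 weeks (-0.836) and for exposed mice, 78 minus 52 weeks (-0.646), as did Npas2 in the last (-1.384). Plate 1 alone gave Clock -0.719 in CD-1 at 78 weeks (p = 0.0375). With the main axis as a covariate Clock was called in CD-1 at 26 weeks (-0.71, p = 0.000529), at 78 weeks (-0.719) and in air CD-1 minus WT (0.255). In air, 78 minus 52 weeks, Clock was called with the mean of probe sets (0.267), 1435775_PM_at (0.362) and 1439314_PM_at (0.401), and lost its call in air, 104 minus 78 weeks, with 1418660_PM_at (-0.047). Without tumour-labelled mice Npas2 was called in CD-1 at 104 weeks (-1.284).

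The dim Arntl probe set 1457740_PM_at lost the calls in CD-1 at 26 weeks (-0.44), at 104 weeks (-0.266), in the CD-1 mean (-0.099) and for exposed mice, 78 minus 52 weeks (-0.319), and reversed exposed KO mice, 104 minus 78 weeks (0.103, against -1.896). That 78 minus 52 week difference ran from -1.532 to -1.169 with 1 array left out (2 of 34 calls lost). Npas2 with 1421036_PM_at lost the calls in WT at 104 weeks (-0.178) and for exposed mice, 52 minus 26 weeks (0.278). With the replicate block, which pairs mice that share only a number, Npas2 gained a call for exposed mice, 78 minus 52 weeks (-1.405, p = 0.0183), and no other main call changed. A fit of the TG mice of 26 weeks alone with the block, added after the data were seen, changed no call.

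Correlations with Clock no longer passed in smaller sets of arrays (permutation p). With Arntl, r was 0.288 in air arrays (p = 0.051), 0.297 on plate 3 and 0.286 on plate 4. With Npas2 it was 0.323 on plate 2, 0.423 on plate 3 and, reversed, -0.088 on plate 4 (p = 0.721). The second Arntl probe set, 1457740_PM_at, lay above the filter level on 46 arrays. The second Npas2 probe set, 1421036_PM_at, did so on 150, against 143 for the Npas2 probe set used. The part of low signal in the lost calls was not tested.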
